A study of Mus musculus with 474 samples.

Results

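The comparison described here sets muscle libraries of early outbred generations against those of late ones. The third field of each sample title was read as the outbred generation of the animal. The methods of the study name generations 18, 19 and 21, and generations 17 and 23 were read from the titles alone. All libraries of generations 17 and 18 (early) were compared with all libraries of generations 19, 21 and 23 (late), so that every library of the series took part. The early group held 48 females and 46 males of generation 17 and 45 females and 48 males of generation 18. The late group held 49 females and 50 males of generation 19, 46 females and 47 males of generation 21 and 47 females and 48 males of generation 23. The generations thus had 94, 93, 99, 93 and 95 libraries. Every animal was a Diversity Outbred mouse, and every animal of both groups was fed the same high-fat, high-sugar diet, labelled 45percent fat. The labels name no engineered allele and no other treatment, and by the methods of the study the mice were also bled while fasted and given glucose by mouth in a tolerance test. Each library came from the skeletal muscle of 1 mouse, which the study's methods name as gastrocnemius. The study entered sex, generation and wave of the outbred mice as covariates in its models. The wave of an animal is not given in the labels used here and could not enter the fits, so that wave and period cannot be told apart. The question asked here is which transcripts differ along the generations.

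Diversity Outbred mice descend from a set of inbred founder strains and are bred at random in each generation, so that every animal carries its own mosaic of founder haplotypes. Successive generations are different animals raised as different cohorts, and anything else that differed between the cohorts cannot be told apart from generation in this design. Many of the genes that differed most were immediate-early genes. These are transcribed within minutes of a signal from growth factors, calcium, mechanical load or stress, with no need for new protein, and their messenger RNA is short-lived. Many encode transcription factors, such as the Fos and Jun proteins, which pair as the dimer AP-1, and others encode phosphatases or RNA-binding proteins that end the response. Resting muscle holds little of this RNA, and contraction, injury and tissue handling are each known to raise it. In bulk muscle RNA, a larger number of cells of one type and more RNA per cell cannot be told apart.

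The libraries held between 35.9 M and 165.7 M expected counts (M, the prefix mega). The mean total was 81.3 M ± 16.1 M (SD) over the 94 and 93 libraries of the early generations and 81.7 M ± 16.3 M (SD) over the 99, 93 and 95 of the late ones, a difference of 0.433 M (two-sided permutation test, p = 0.780). Levels are given in CPM, the counts of a gene per M counts of the TMM-scaled library total. The fast myosin gene Myh4 lay between 41080 and 94929 CPM and the muscle creatine kinase gene Ckm between 6809 and 31917 CPM over all libraries, so every library held muscle RNA. In 5 libraries, 3 early and 2 late, the sex-linked RNA went against the sex in the label. Among them were an early female-labelled library, DO048, and a late male-labelled one, DO308, with adjacent library numbers. Among the deposited count columns DO308 stands where DO048 would fall by number. Whether the pair was exchanged between the periods was not tested. Without the 5 libraries 1225 genes were called between the groups in place of 1257.

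Of 18823 genes tested, 1257 (6.68%) differed between early and late generations at an adjusted p under 0.05 (edgeR's quasi-likelihood test with sex in the model, Benjamini-Hochberg adjustment). Of the genes tested, 3.68% were higher in the late generations and 3.0% were lower, so that 55.1% of the called genes were higher. Scaling by the total count alone moved this split to 1225 higher of 1553 called genes (78.9%), since it shifted the median log2 difference of all genes from -0.0026 to 0.016. Most differences were small, with a median size of 0.14 on the log2 scale among the called genes, and 71 genes (0.377%) were both called and changed by at least 1.5-fold, 37 upward and 34 downward. The period accounted for more than 10% of the variance of log2 CPM in 33 genes, and its largest share was 38.5%, in Fosb.

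How far a difference holds over whole generations was read in 2 further ways. In 1096 of the 1257 called genes the 3 late generation means all lay on the same side of both early means. Of all genes tested 5357 (28.5%) did so. The called genes were picked on these same libraries, so their larger share is partly built in and is not independent evidence. Generation 17 weighed heavily, since leaving it out reduced the called genes to 0.972% of those tested, whereas leaving out generation 18 raised them to 9.38% (1765 genes). When each generation was taken as 1 unit (limma on 5 generation means), 6 genes were called and 1882 had an unadjusted p under 0.05. The 6 were Zfp36, Socs3 and Cxcl1, which were higher in the late generations, Cish, a cytokine-signalling inhibitor that was also higher but had not passed in the comparison of libraries, and the muscle genes Ankrd1 and Lmod2, which were lower. Cish, Ankrd1 and Lmod2 were chosen after their values were seen. The p-values given below measure the spread between animals, not between cohorts.

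Most of the immediate-early genes tested were higher in the late generations. Of 54 genes in 4 lists of them, 49 were tested, 31 were higher in the late generations and 2 were lower, and 16 were not called. This share of 67.3% called compares with 6.68% over all genes, and the median log2 difference of the 49 was 0.27 against -0.0026 over all genes. The lists were drawn up with earlier results of these data known, so their direction is not independent evidence. With adipocyte, erythroid, macrophage and slow-fibre marker scores in the model, 33 of the 49 were higher and 2 lower. Without generation 17 the counts were 22 higher and 1 lower.

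Fosb, a Fos-family partner of the Jun proteins (chr7:19302696-19310051, GRCm38), showed the largest rise among the genes named. In the early generations its level ran from 0.0960 through a median of 0.742 to 7.38 CPM, and in the late generations from 0.205 through 6.28 to 62.8 CPM. The ranges of the 2 groups overlapped, yet 82.6% of the late libraries lay above the early upper quartile and 130 lay above the highest early library. The log2 difference was 3.20 ± 0.16 (SE; adjusted p = 2.83e-60, edgeR), a fold of 9.19. The generation means were 0.860 and 1.43 CPM in generations 17 and 18 and 13.6, 7.58 and 10.1 CPM in generations 19, 21 and 23. The late libraries were also more unlike one another, with an upper quartile 5.28 to 7.18 times the lower one in the 3 late generations against 2.13 and 2.83 times in the early ones.

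Fos, the founding member of the family (chr12:85473890-85477273), followed the same order of generations. Its level ran from 2.59 through 10.7 to 89.3 CPM in the early group and from 2.75 through 40.7 to 312.1 CPM in the late group. Again the ranges overlapped at the low end, where the lowest late library lay close to the lowest early one. The log2 difference was 2.06 ± 0.12 (SE; adjusted p = 9.11e-50, edgeR). The generation means were 11.4 and 16.3 CPM against 71.5, 45.0 and 52.1 CPM. Generation 19 held the highest mean of both genes, and the generations of the same period differed among themselves as well (adjusted p = 0.00127 for Fosb and 0.000514 for Fos, edgeR).

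**Figure D1:**
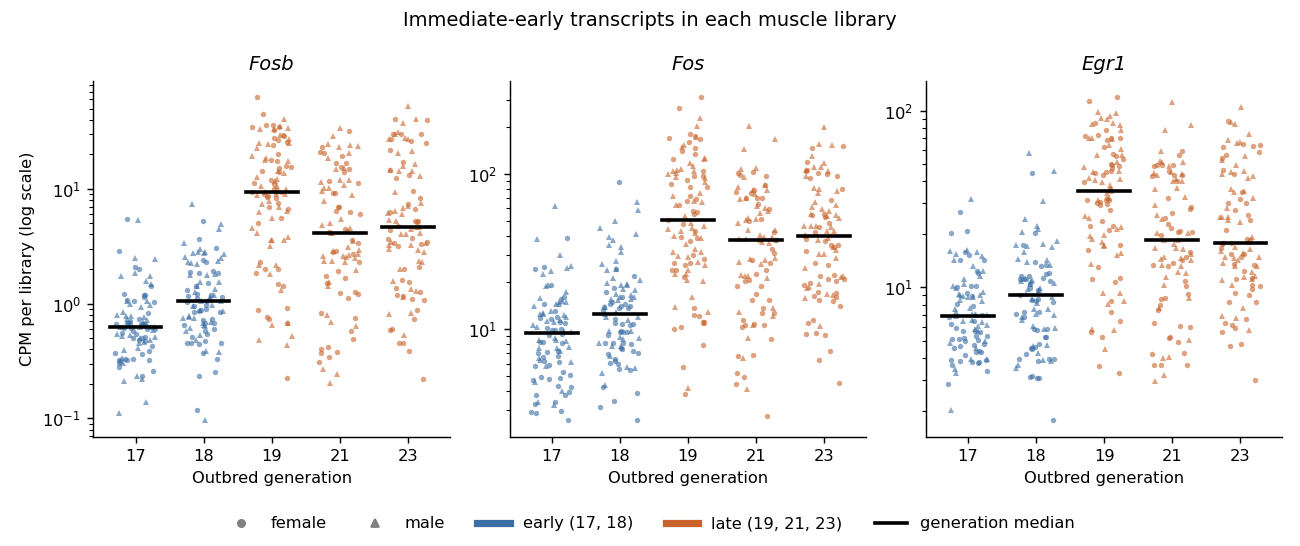
CPM of Fosb, Fos and Egr1 in each library (vertical log axis) by outbred generation, with circles for females, triangles for males and bars for generation medians. The medians of Fosb are 0.628 and 1.04 CPM in generations 17 and 18 and 9.43, 4.10 and 4.67 CPM in generations 19, 21 and 23, and the clouds of the late generations reach down into the early ones.

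The rise was found in both sexes. Between early and late libraries Fosb differed by a log2 of 3.39 in females alone and 3.02 in males alone, and Fos by 2.31 and 1.82. The test of the difference between the sexes gave an adjusted p of 0.885 for Fosb and 0.654 for Fos (edgeR, sex-by-period interaction). For a further comparison the library numbers in the titles were cut into 5 runs of neighbouring numbers, called blocks here. The cuts were chosen for this comparison, and the titles do not name them as batches. Each block holds libraries of all 5 generations. Within every block Fosb, Fos and Egr1 were called, with log2 differences of 3.07 to 3.43 for Fosb, 1.84 to 2.30 for Fos and 1.51 to 1.96 for Egr1. With the generation as the unit, Fosb differed by 2.61 (adjusted p = 0.0936, limma on 5 generation means).

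Among the other AP-1 members Junb and Fosl2 rose most. Junb, a Jun-family subunit, had medians of 5.49 CPM early (1.495 to 50.3) and 11.5 CPM late (2.07 to 81.8), with a log2 difference of 1.23 ± 0.09 (SE; adjusted p = 1.03e-30). Fosl2 rose by 0.41 ± 0.05 (adjusted p = 5.05e-13), Jun by 0.25 ± 0.04 (adjusted p = 2.93e-07), Maff by 0.25 ± 0.08 (adjusted p = 0.0194) and Jund by 0.16 ± 0.05 (adjusted p = 0.0132). Without generation 17 Maff (0.15, adjusted p = 0.705) and Jund (0.093, adjusted p = 0.695) were not called. In males alone Jun was at 0.18 and did not pass (adjusted p = 0.0516, edgeR). In all, 7 of 9 genes of this list were higher (3.68% of all genes) and none was lower. The remaining 2 were Fosl1, with a log2 difference of 0.021, and Atf3, with 0.025, although Atf3 is itself a stress-induced partner of AP-1 and stood at a mean of 34.9 CPM early and 35.2 CPM late. The gene Junb overlaps Prdx2 and Jun overlaps Junos, and how the counting used strand is not given in the sources used here.

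The promoters of these genes were read for the letters that the induction pathway is known to use. CREB binds the cAMP response element (CRE, TGACGTCA), AP-1 binds TGAGTCA or TGACTCA, and serum response factor binds the CArG box. Windows of 300 bases, from 250 before to 50 after the transcript start, were taken from RefSeq (GRCm38.p6) and searched on both strands. A window was found for 39 of the 54 immediate-early genes, 50 windows in all. Of these 50, 4 held the CRE, 2 an AP-1 site and 6 (12.0%) a CArG box, 4 of the 6 being windows of Egr2. Over all 32851 windows of the table the shares were 1.79%, 5.20% and 1.63%. The 5 windows below are those of the 2 genes that rose most, which held none of the 3 motifs in this window, and of 3 risen genes that held one, the CRE of Btg2 and Dusp1 and the CArG box of Zfp36. Each is printed 5′ to 3′ on the gene's strand with the matching letters in capitals. A match is a string of letters and not a shown binding site. Only full matches inside the window were counted. A window without one may still hold a near match, and sites farther from the start were not searched.
Fosb, chr7:19309996-19310295, minus strand: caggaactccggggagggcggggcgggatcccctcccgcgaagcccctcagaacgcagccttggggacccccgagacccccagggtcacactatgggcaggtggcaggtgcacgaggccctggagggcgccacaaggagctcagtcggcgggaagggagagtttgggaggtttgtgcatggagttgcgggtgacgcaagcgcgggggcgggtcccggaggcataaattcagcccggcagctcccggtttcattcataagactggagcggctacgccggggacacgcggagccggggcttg
Fos, chr12:85473640-85473939, plus strand: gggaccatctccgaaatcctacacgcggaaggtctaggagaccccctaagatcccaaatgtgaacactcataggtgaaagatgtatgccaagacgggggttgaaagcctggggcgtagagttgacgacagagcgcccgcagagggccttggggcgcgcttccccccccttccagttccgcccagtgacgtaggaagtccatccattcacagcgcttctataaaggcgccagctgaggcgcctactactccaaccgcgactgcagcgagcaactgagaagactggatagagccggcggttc
Btg2, chr1:134079106-134079405, minus strand: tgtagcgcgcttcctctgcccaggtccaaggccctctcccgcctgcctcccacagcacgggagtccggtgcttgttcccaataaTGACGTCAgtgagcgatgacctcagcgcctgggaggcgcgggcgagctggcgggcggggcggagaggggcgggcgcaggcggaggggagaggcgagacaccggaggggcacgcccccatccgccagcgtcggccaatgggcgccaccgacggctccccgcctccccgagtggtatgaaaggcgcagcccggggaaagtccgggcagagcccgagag
Dusp1, chr17:26508423-26508722, minus strand: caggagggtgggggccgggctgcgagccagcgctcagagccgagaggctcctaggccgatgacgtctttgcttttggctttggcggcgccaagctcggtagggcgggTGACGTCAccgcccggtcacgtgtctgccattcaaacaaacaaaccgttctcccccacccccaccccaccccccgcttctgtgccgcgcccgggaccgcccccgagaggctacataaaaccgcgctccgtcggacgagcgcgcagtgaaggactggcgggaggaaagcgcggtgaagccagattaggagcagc
Zfp36, chr7:28379179-28379478, minus strand: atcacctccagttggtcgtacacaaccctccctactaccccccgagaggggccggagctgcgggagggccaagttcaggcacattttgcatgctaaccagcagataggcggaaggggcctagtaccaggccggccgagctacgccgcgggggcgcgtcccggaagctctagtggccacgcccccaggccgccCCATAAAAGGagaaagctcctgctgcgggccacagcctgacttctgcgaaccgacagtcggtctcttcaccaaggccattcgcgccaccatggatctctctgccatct

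The second group of immediate-early genes encodes transcription factors outside AP-1. Egr1, a zinc-finger factor induced by growth signals and load, ran from 1.77 through 7.62 to 57.2 CPM early and from 2.94 through 23.5 to 118.997 CPM late. Of the late libraries, 77.0% lay above the early upper quartile, while the lowest late libraries lay within the early range. The log2 difference was 1.71 ± 0.11 (SE; adjusted p = 2.17e-42, edgeR), with generation means of 8.35 and 10.9 CPM against 40.5, 25.1 and 27.9 CPM. Nr4a2, an orphan nuclear receptor, had medians of 2.61 CPM early (0.674 to 36.6) and 5.75 CPM late (1.07 to 52.9) and rose by 0.97 ± 0.11 (adjusted p = 1.23e-13). Its relative Nr4a1, at a mean of 157.04 CPM early and 207.03 CPM late, rose by 0.40 ± 0.05 (adjusted p = 7.76e-12). The third member, Nr4a3, stood at 60.8 CPM early and 52.5 CPM late and did not pass the test (log2 difference -0.21, adjusted p = 0.146).

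Of the 13 tested genes of this group, 9 were higher and 1 was lower, against 3.68% and 3.0% of all genes. Egr2 rose by 0.60 ± 0.07 (adjusted p = 6.64e-14) and Egr3 by 0.55 ± 0.11 (adjusted p = 3.43e-05). The Krüppel-like factors Klf2, which is known from endothelium under flow, and Klf4 rose by 0.48 ± 0.04 (adjusted p = 4.74e-21) and 0.34 ± 0.04 (adjusted p = 9.37e-18). Csrnp1 rose by 0.33 and Klf6 by 0.13. The member that fell was Klf10, by 0.16 (adjusted p = 0.00746), and Myc (log2 difference 0.0078) and the neuronal factor Npas4 (0.12, at 0.158 CPM early) were not called. Without generation 17 neither Egr3 (0.36, adjusted p = 0.256) nor Csrnp1 (0.095, adjusted p = 0.830) was called, and Egr3 was not called without generation 19 (0.33, adjusted p = 0.0691) or in females alone (0.51, adjusted p = 0.0511).

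Among genes that restrain the response, 12 of 21 tested were higher, where 3.68% of all genes were. Btg2, an antiproliferative gene, had medians of 30.02 CPM early (12.3 to 94.8) and 52.1 CPM late (13.0 to 318.02), with 65 late libraries above every early one and a log2 difference of 1.04 ± 0.08 (SE; adjusted p = 2.21e-29). Dusp1, a phosphatase that switches off MAP kinases, had medians of 69.8 CPM early (30.8 to 146.1) and 106.3 CPM late (42.5 to 293.8). It rose by 0.64 ± 0.05 (adjusted p = 1.11e-31), and 71 late libraries lay above every early one. Ier2, a small nuclear protein, rose by 0.81 ± 0.06 (adjusted p = 4.41e-36), from a median of 3.73 to 6.11 CPM. The RNA-decay factors Zfp36, which targets AU-rich messages, and Zfp36l1 rose by 0.56 ± 0.06 (adjusted p = 8.89e-17) and 0.28 ± 0.03 (adjusted p = 2.34e-19). Sik1, a kinase that acts on CREB coactivators, rose by 0.49 ± 0.06 (adjusted p = 4.97e-12).

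Socs3, an inhibitor of cytokine signalling, had a few libraries of both periods far above the others. Its medians were 1.75 CPM early and 2.54 CPM late, and its highest libraries stood at 108.95 and 132.8 CPM. The log2 difference was 0.84 ± 0.14 (SE; adjusted p = 1.82e-06), and without generation 17 it was 0.56 and no longer passed. None of the 21 was lower. The 9 that were not called included Dusp6, another MAP-kinase phosphatase, at a log2 difference of -0.0042, and Per1, which is both a clock gene and an immediate-early gene, at 0.15 (adjusted p = 0.0763). Dusp1 overlaps Ergic1 in the annotation. Apold1, an endothelial immediate-early gene, had medians of 6.01 CPM early and 10.8 CPM late and rose by 0.78 ± 0.07 (adjusted p = 8.87e-22).

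Of the 6 tested immediate-early genes with secreted products, 3 rose and 1 fell, against 3.68% and 3.0% of all genes. The matrix proteins Ccn1, Thbs1 and Ccn2 rose by 0.27 ± 0.05 (adjusted p = 2.20e-05), 0.26 ± 0.05 (adjusted p = 3.43e-05) and 0.14 ± 0.04 (adjusted p = 0.00787), the last not called without generation 17 (0.061, adjusted p = 0.812). Hbegf, an EGF-receptor ligand, fell by 0.23 ± 0.05 (adjusted p = 0.000302), from a mean of 11.5 to 9.84 CPM. Another list holds the kinases and factors that carry the signal to these genes (MAP kinases, CaM kinases, ribosomal S6 kinases, CREB, its coactivators, SRF and its partners). Of its 27 tested members 2 were called (7.41%, against 6.68% of all genes), Mrtfa at 0.11 and Crtc3 at 0.055, neither of them called without generation 17 (adjusted p = 0.771 and 0.963), and the median log2 difference was -0.0055.

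**Figure D2:**
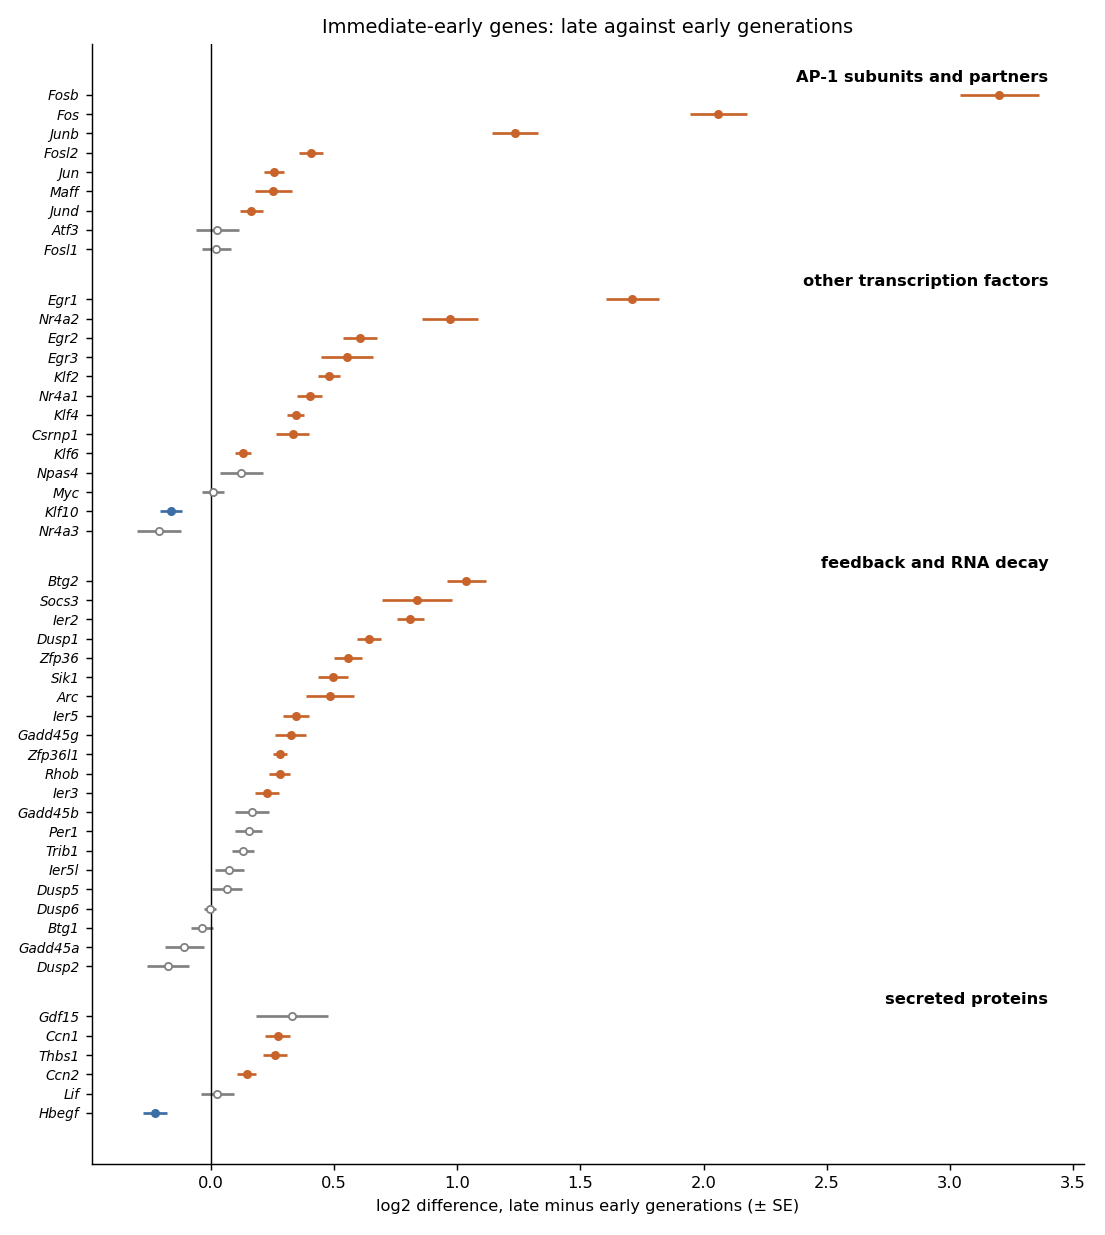
Log2 difference, late minus early generations, with its standard error for the 49 tested immediate-early genes in 4 groups by role. Filled points passed the test (orange higher, blue lower in late generations) and open points did not. Fosb (3.20), Fos (2.06) and Egr1 (1.71) lie farthest from 0, and Klf10 and Hbegf are the only filled points below it.

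Of 14 tested inflammatory genes of the cytokine and NF-kB list, which are known for the same quick induction, 7 were higher (3.68% of all genes were) and none was lower. Cxcl1, a neutrophil-attracting chemokine, had medians of 0.157 CPM early and 0.388 CPM late and rose by 1.23 ± 0.11 (SE; adjusted p = 2.20e-22), with 66.2% of late libraries above the early upper quartile. Ptgs2, the inducible cyclooxygenase, rose by 0.96 ± 0.10 (adjusted p = 7.68e-19), from a median of 0.246 to 0.427 CPM. Il1b rose by 0.77 ± 0.16 (adjusted p = 0.000257), but without generation 19, which held the highest mean of 0.190 CPM, it was at 0.40 and did not pass. Nfkbiz rose by 0.22 and the NF-kB feedback gene Tnfaip3 also by 0.22. Nfkbia (0.054) and Tnf (0.12) were not called.

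Heat-shock genes were higher in 5 of 12 tested members, against 3.68% of all genes, and lower in none. Dnajb1, the cytosolic partner of the inducible Hsp70, had medians of 10.5 CPM early and 17.8 CPM late and rose by 0.64 ± 0.09 (SE; adjusted p = 6.98e-10). Its generation means were 10.99 CPM in generation 17, 19.8 in generation 18 and 26.9, 24.5 and 21.1 in the late ones, so that generation 18 stood closer to the late generations than to generation 17. Without generation 17 its difference was 0.29 and was not called. The Hsp70 genes Hspa1b and Hspa1a, near-identical copies whose reads the counting may have shared, rose by 0.55 ± 0.13 (adjusted p = 0.00240) and 0.43 ± 0.12 (adjusted p = 0.0143), with generation 18 (71.1 CPM for Hspa1b) above generation 23 (58.7 CPM). Without generation 17 neither was called, with log2 differences of 0.059 for Hspa1b (adjusted p = 0.969) and 0.00059 for Hspa1a, nor was their cochaperone gene Dnaja1 (0.054, adjusted p = 0.848).

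Markers of red cells and some of myeloid cells were higher as well. Of 7 erythroid genes tested 6 were higher in the late generations and none was lower, where 3.68% of all genes were higher, and the summed level of the list had medians of 127.7 CPM early (29.1 to 817) and 153.6 CPM late (36.3 to 2797). The haemoglobin genes Hbb-bs and Hbb-bt, close relatives that may share reads, rose by 0.40 ± 0.07 (adjusted p = 1.56e-05) and 0.51 ± 0.10 (adjusted p = 1.79e-05), and Alas2, the first enzyme of haem synthesis in red cells, by 0.51 ± 0.09 (adjusted p = 4.68e-06). In females alone they differed by 0.65, 0.81 and 0.92, and in males alone by 0.16, 0.23 and 0.13, where none of the 3 was called (adjusted p = 0.424, 0.408 and 0.687, edgeR). The difference between the sexes itself passed for Alas2 (interaction adjusted p = 0.00434). Of 6 tested neutrophil genes 3 were higher (3.68% of all genes), S100a8, S100a9 and Csf3r, the receptor of a granulocyte growth factor, with list medians of 1.33 CPM early (0.331 to 6.54) and 1.72 CPM late (0.423 to 46.2). Csf3r rose by 0.24 ± 0.07 (adjusted p = 0.0133) and was not called without generation 17 (0.26, adjusted p = 0.154), 18 (0.22, adjusted p = 0.106) or 19 (0.22, adjusted p = 0.0614), and without generation 17 S100a9 alone of the 3 was called. Of 14 macrophage genes 3 were higher (3.68% of all genes), Cd14 by 0.19, Adgre1 by 0.17 and Itgam by 0.13, and none was lower. Without generation 17 Adgre1 (0.20, adjusted p = 0.0542) and Itgam (0.14, adjusted p = 0.262) were not called, and without generation 18 none of the 3 was. No lymphocyte gene of 10 tested, with a median log2 difference of -0.23, was called by edgeR, and 1 of them, Cd4, had an unadjusted p under 0.05. The part of these cells in the rise of the immediate-early genes was not tested beyond the fit with marker scores. In that fit Fosb differed by 3.23 and Fos by 2.08. Its scores covered red cells and macrophages but not neutrophils or lymphocytes.

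The genes that were lower in the late generations form another picture. They include genes that muscle raises when it turns from glucose to fat, as in fasting. Pdk4, the kinase that shuts glucose carbon out of the mitochondrion (chr6:5483351-5496309), ran from 448.9 through 1550 to 4275 CPM in the early group and from 152.4 through 1115 to 3985 CPM in the late group. The ranges overlapped almost fully, while 55.4% of late libraries lay below the early lower quartile. The log2 difference was -0.44 ± 0.06 (SE; adjusted p = 2.51e-10, edgeR), with generation means of 1829 and 1469 CPM against 1222, 1223 and 1212 CPM. Ppargc1a, the coactivator PGC-1alpha that drives mitochondrial genes, had medians of 81.7 CPM early (29.6 to 268.3) and 57.5 CPM late (19.9 to 247.4) and fell by 0.40 ± 0.06 (adjusted p = 9.14e-08). Its early generations were close to each other, at means of 87.2 and 91.1 CPM, and it passed the test without each generation in turn. Ucp3, a mitochondrial carrier raised by fatty acids, fell by 0.30 ± 0.05 (adjusted p = 1.16e-06).

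Of 14 tested fuel-switch genes 4 were lower, against 3.0% of all genes, and none was higher, the other being Angptl4, an inhibitor of lipoprotein lipase, at -0.33 ± 0.07 (adjusted p = 0.000163). The fat-oxidation enzymes themselves were not called: Cpt1b stood at -0.029, Acadm at -0.012 and Hadha at -0.033. Ppargc1a overlaps 4 predicted genes and Ucp3 overlaps 1, and the reads of each pair cannot be told apart where strand is not used.

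Genes of the glucocorticoid and FoxO response fell in 6 of 13 tested members, against 3.0% of all genes, and rose in none. Zbtb16, a glucocorticoid-induced factor, had medians of 164.6 CPM early (79.7 to 289.7) and 134.3 CPM late (63.5 to 346.6) and fell by 0.24 ± 0.03 (SE; adjusted p = 2.00e-09). Foxo1 and Foxo3, the factors that switch on muscle protein breakdown, fell by 0.34 ± 0.06 (adjusted p = 9.38e-06) and 0.14 ± 0.03 (adjusted p = 7.41e-05). The ubiquitin ligase genes Trim63 and Fbxo32, which mark muscle atrophy, fell by 0.36 ± 0.06 (adjusted p = 1.50e-06) and 0.21 (adjusted p = 0.00235). These falls leaned on generation 17. Without it the log2 difference was -0.062 for Foxo1, -0.060 for Foxo3, -0.091 for Zbtb16, -0.26 for Trim63, -0.13 for Ucp3 and -0.11 for Angptl4, none of which was called, whereas Pdk4 (-0.27, adjusted p = 0.0399) and Ppargc1a (-0.43, adjusted p = 7.30e-05) still were. The glucocorticoid targets Tsc22d3 (-0.066) and Klf9 (-0.0060) were not called.

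**Figure D3:**
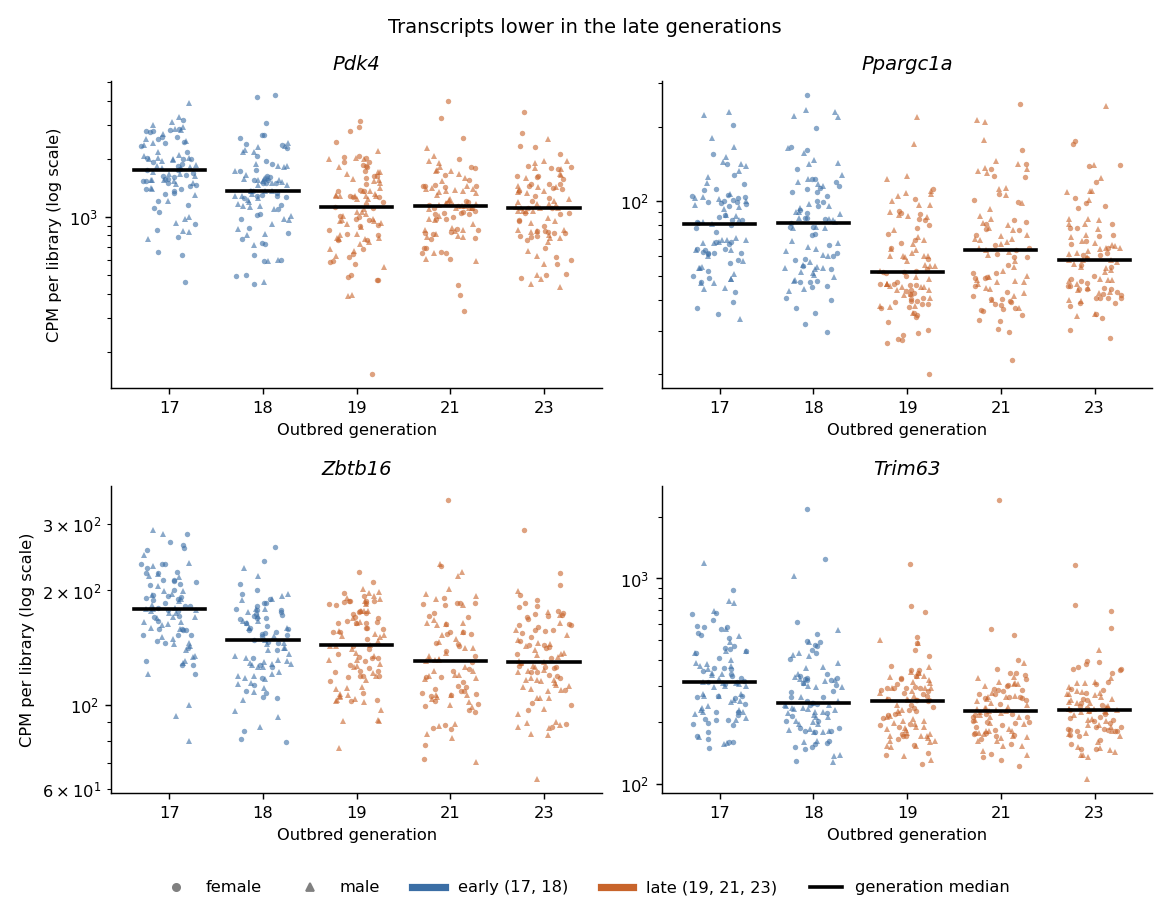
CPM of Pdk4, Ppargc1a, Zbtb16 and Trim63 in each library (vertical log axes) by outbred generation, with circles for females, triangles for males and bars for generation medians. Pdk4 and Zbtb16 step down from generation 17 to 18, and the 3 late generations lie close together, at Pdk4 medians of 1129, 1131 and 1114 CPM.

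Of 17 tested clock genes 2 were higher and 1 was lower, a called share of 17.6% against 6.68% of all genes. Bhlhe40, a repressor that is also induced quickly by stress, rose by 0.27 ± 0.04 (SE; adjusted p = 3.02e-07), and Ciart, a clock repressor, by 0.26 ± 0.09 (adjusted p = 0.0424). Arntl, the activator BMAL1, fell by 0.15 ± 0.05 (adjusted p = 0.0476). The genes with the widest daily swing, Dbp (0.19, adjusted p = 0.377), Per2 (0.061) and Nr1d1 (-0.025), were not called. Without generation 17 none of the 3 called genes passed, with log2 differences of 0.11 for Bhlhe40 (adjusted p = 0.529), 0.056 for Ciart (adjusted p = 0.949) and -0.078 for Arntl (adjusted p = 0.809).

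None of 12 fast-fibre and 10 slow-fibre genes of the muscle was called by edgeR, where 6.68% of all genes were, and the medians of the summed levels were 162528 CPM early and 160547 CPM late for the fast genes and 3063 and 3071 CPM for the slow ones. No satellite-cell gene of 8 and no Schwann-cell gene of 7 passed (6.68% of all genes did). In the denervation list Chrnb1, a subunit of the muscle acetylcholine receptor, was the 1 of 10 that fell (0.087; 3.0% of all genes were lower), and it was not called without generation 17 (-0.083, adjusted p = 0.364). None of 85 ribosomal protein genes, 77 nuclear genes of oxidative phosphorylation or 33 histone genes was called, against 6.68% of all genes. An unadjusted p under 0.05 was found for 5 of the ribosomal, 6 of the oxidative phosphorylation and 2 of the histone genes, and for 2 slow-fibre, 2 satellite-cell, 1 Schwann-cell and no fast-fibre gene. Of the 13 mitochondrially encoded genes 4 were lower, against 3.0% of all genes, mt-Nd3 by 0.13, mt-Nd6 by 0.12, mt-Nd5 by 0.095 and mt-Cytb by 0.078, and mt-Nd5 and mt-Nd6 overlap. None of the 4 was called without generation 17 (adjusted p = 0.132, 0.357, 0.456 and 0.136 in that order, edgeR).

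Lists of other cell types in the tissue held 1 call at most in either direction, where 6.68% of all genes were called. Pecam1 was the 1 of 9 endothelial genes that fell (0.067), Pdgfrb the 1 of 7 smooth-muscle and pericyte genes (0.10) and Ube2c the 1 of 20 mitosis genes (0.14). Dpt was the 1 of 10 fibro-adipogenic genes that rose (0.090). Of 12 adipocyte genes Lep, the fat hormone leptin, rose by 0.43 ± 0.14 (SE; adjusted p = 0.0296) and Plin4, a lipid-droplet coat gene that muscle also expresses, fell by 0.17 ± 0.04 (adjusted p = 0.000175). The summed level of that list had medians of 802 and 796 CPM, and none of 4 brown-adipocyte genes was called. Without generation 17 none of these 6 genes was called, with log2 differences of -0.064 for Pecam1 (adjusted p = 0.216), -0.069 for Pdgfrb (adjusted p = 0.254), -0.085 for Ube2c (adjusted p = 0.634), 0.096 for Dpt (adjusted p = 0.216), 0.59 for Lep (adjusted p = 0.0657) and -0.027 for Plin4 (adjusted p = 0.932).

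**Figure D4:**
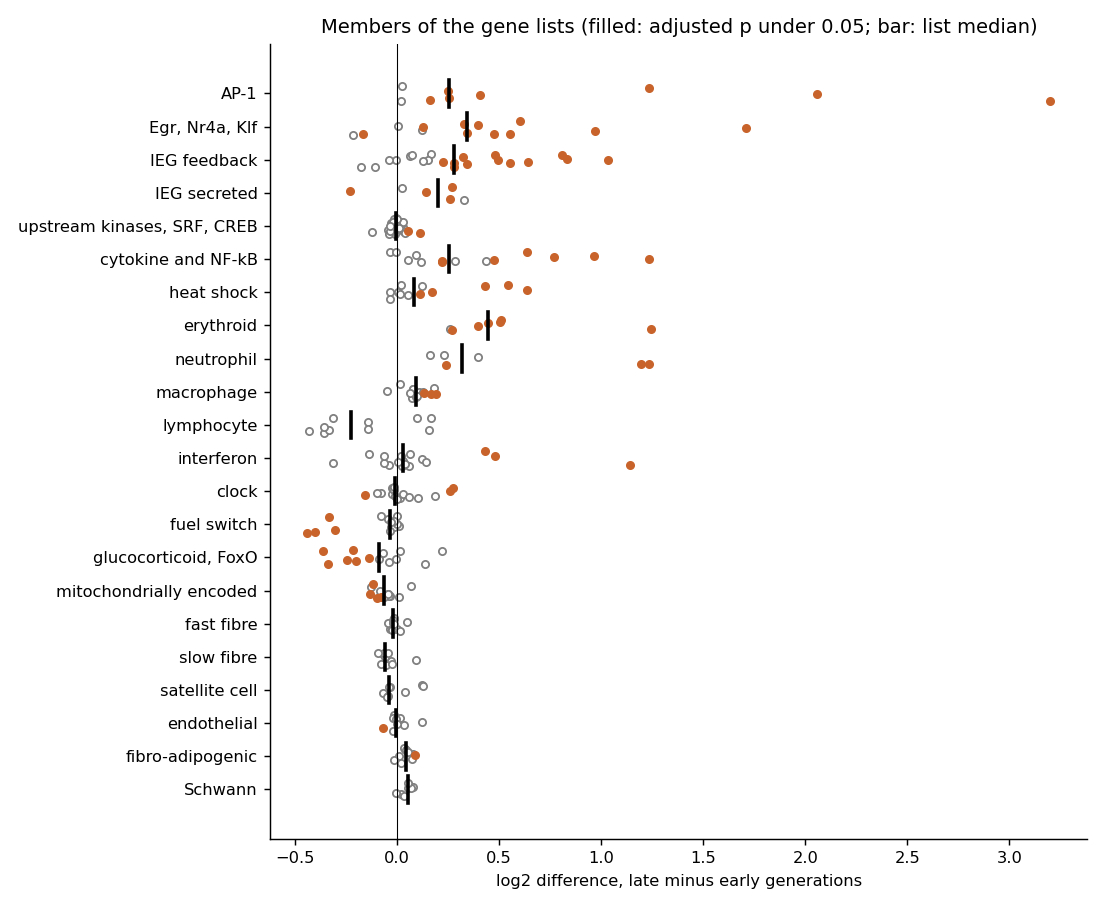
Log2 difference, late minus early generations, of each tested member of 22 gene lists, filled where it passed the test, with a bar at each list's median. The immediate-early lists, the cytokine list and the erythroid list lie to the right of 0 (medians 0.20 to 0.44), the upstream signalling and fibre lists lie around 0, and the called members of the fuel-switch list all lie to the left.

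Cwc22, which encodes a spliceosome factor (chr2:77881159-77946375), fell by 1.12 ± 0.17 (SE; adjusted p = 3.80e-08). Its mean did not follow the border between the periods. The generation means were 49.5, 55.98 and 47.5 CPM in generations 17, 18 and 19 and 15.0 and 11.3 CPM in generations 21 and 23, while the medians stayed between 11.1 and 12.2 CPM in all 5. The mean was set by a minority of animals far above the rest. Above 50 CPM, a level set after the values were seen, stood 12 of 94 libraries in generation 17, 12 of 93 in generation 18, 10 of 99 in generation 19, 1 of 93 in generation 21 and none of 95 in generation 23, with no library between 25.7 and 157.1 CPM. Without generation 19 the log2 difference was -2.01. Of the other 58 genes tested within 5 megabases, 1 was called, Fkbp7, which rose by 0.11 (adjusted p = 0.00177).

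**Figure D5:**
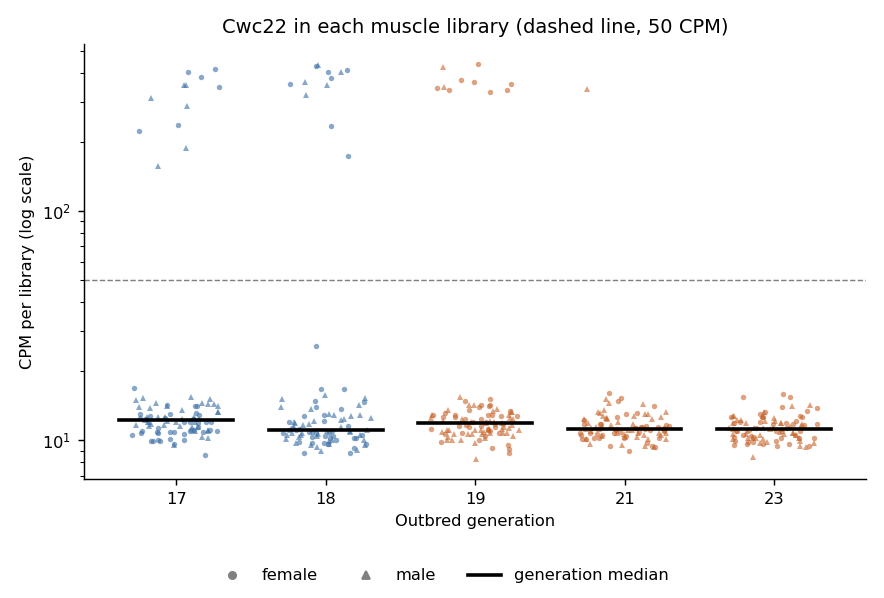
CPM of Cwc22 in each library (vertical log axis) by outbred generation, with circles for females, triangles for males, bars for generation medians and a dashed line at 50 CPM. All 35 libraries above the line lie at 157.1 CPM or higher, 24 of them in the early group, 10 in generation 19 and 1 in generation 21.

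Il1f9, an interleukin-1 family gene on the same chromosome (chr2:24186476-24193568), showed the same step between generations 19 and 21, with generation means of 1.01, 1.13, 1.00, 0.387 and 0.322 CPM and a log2 difference of -0.93 ± 0.17 (SE; adjusted p = 1.04e-05). Its medians were 0.308 CPM early and 0.266 CPM late, and it was not called with generation as a random block (-0.40, adjusted p = 0.171, limma) or in females alone (-0.66, adjusted p = 0.158). The remaining falls among the 10 largest were in low genes. Doc2b, a vesicle-fusion gene, fell by 0.54 ± 0.10 (adjusted p = 2.78e-05), Chrna9, an acetylcholine receptor subunit, by 0.60 ± 0.18 (adjusted p = 0.0165), Btla, an inhibitory receptor of lymphocytes, by 0.44 ± 0.11 (adjusted p = 0.00216) and Trim12a by 0.42 ± 0.14 (adjusted p = 0.0455). Without generation 17 the log2 difference was -0.22 for Doc2b, -0.48 for Chrna9, -0.44 for Btla and -0.46 for Trim12a. None of these 4 was then called, though Btla and Trim12a had not shrunk. Chrna9 ranged from 0.0744 to 54.8 CPM among early libraries alone, so that the difference between the periods was small beside the spread between animals.

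Alb, the serum albumin gene of the liver, had the largest fitted fall (-3.65 ± 0.26 SE, adjusted p = 1.25e-33), and its size depended on 1 library. A generation 17 female, DO022, held 763 CPM of Alb and was also the highest library for Hpx (46.4 CPM), Pzp (75.03 CPM) and Trf (324.7 CPM), further genes of liver. The Alb median was 0.161 CPM early and 0.170 CPM late. Without that library the log2 difference was -1.19 and still passed (adjusted p = 4.85e-09, edgeR), with the next highest libraries at 19.8 and 17.6 CPM, both early. With all libraries Alb was not called by limma on the deposited scores (-0.11, adjusted p = 0.260) or with generation as a random block (-0.12, adjusted p = 0.825).

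In some other called genes the highest libraries were mostly late females. Of 17 tested interferon-response genes 3 were higher, against 3.68% of all genes, and none was lower, the immunity-related GTPases Iigp1, Irgm2 and Igtp, of which Igtp and Irgm2 overlap. Iigp1 stood at 2814 CPM in 1 generation 21 female, DO326, and at 176.7 and 151.02 CPM in the next libraries, with medians of 3.91 CPM early and 3.60 CPM late. DO326 was also the highest library for Igtp and Irgm2, but the second highest was an early male of generation 17, DO094, at 201.85 CPM for Igtp and 244.2 CPM for Irgm2. The log2 difference of Iigp1 was 1.14 ± 0.22 (SE; adjusted p = 2.61e-05), and without the 5 libraries that stood apart in 1 gene each it was 0.37 (adjusted p = 0.173), with Irgm2 at 0.20 and Igtp at 0.083, none of them called. Nor was any of the 3 called without generation 18 (adjusted p = 0.062 for Iigp1) or without generation 21 (adjusted p = 0.769).

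Slc4a1, the anion exchanger of red cells, and S100a8 and S100a9, the calprotectin genes of neutrophils, were each highest in the same 3 generation 23 females, DO497, DO510 and DO472. Slc4a1 had medians of 0.0360 CPM early and 0.0695 CPM late, a highest library of 23.4 CPM and a log2 difference of 1.24 ± 0.24 (SE; adjusted p = 2.46e-05). S100a9 rose by 1.23 ± 0.22 (adjusted p = 7.24e-06) and S100a8 by 1.19 ± 0.22 (adjusted p = 7.78e-06). Without generation 23 Slc4a1 was at 0.60 (adjusted p = 0.0664) and S100a8 at 0.59 (adjusted p = 0.0634), neither of them called, and S100a8 was not called without generation 17 either (0.94, adjusted p = 0.0745). With the marker scores in the model, among them an erythroid one, Slc4a1 was at 0.36 (adjusted p = 0.119). Cyp1a1, an enzyme gene induced through the aryl hydrocarbon receptor, had near-equal medians of 0.606 CPM early and 0.630 CPM late and its 3 highest libraries, at 48.2, 45.2 and 37.9 CPM, were late females. Its log2 difference was 0.66 ± 0.14 (adjusted p = 0.000175), and it was not called without generation 17 (0.54, adjusted p = 0.193) or with generation as a random block (0.12, adjusted p = 0.732, limma).

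Differences between generations of the same period reached 1.63% of the genes tested, and 13.2% of the called genes were among them. All of Fosb, Fos, Egr1, Junb, Btg2 and Nr4a2 were, with generation 18 above generation 17 and generation 19 above generations 21 and 23 in the mean of each, except that the Nr4a2 means of 7.11 and 6.71 CPM put generation 21 above 23 while the other 5 genes put 23 above 21. Cxcl1, Zfp36, Zfp36l1, Pdk4 and Ppargc1a were not among them. A difference between the sexes in the step from early to late passed in 46 genes (0.244%), and none of the 49 immediate-early genes was among them (edgeR). Several of the genes above that lost their call without generation 17 also lost it without another generation. Besides the losses given above, Chrnb1, Dpt, Lep, Trim12a, mt-Cytb and mt-Nd5 lost it without generation 18. Without generation 19 it was lost by Ciart, Crtc3, Hspa1a, Itgam, Maff and Ube2c. Without generation 21 it was lost by Arntl, Chrna9, Chrnb1, Ciart, Hspa1a, Mrtfa, Trim12a, mt-Cytb and mt-Nd5. Without generation 23 it was lost by Adgre1, Arntl, Ccn2, Chrna9, Chrnb1, Crtc3, Dpt, Itgam, Lep, Trim12a, mt-Nd3 and mt-Nd5. By chromosome, the called genes made up 5.15% to 8.23% of the tested genes on the autosomes and 3.51% on X. They were 3 of 8 on Y and 4 of 15 on the mitochondrial genome, these 7 all lower in the late generations. The libraries whose sex-linked RNA went against the label stayed in this fit. How far the Y calls depend on them is not given here.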

How the data were processed

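Skeletal muscle RNA of 474 Diversity Outbred mice was sequenced from poly(A)-selected libraries. The authors deposited expected counts per gene, estimated with EMASE and GBRS on GRCm38 (versions and strand use are not given in the sources used here), a table of scores on the variance stabilised scale made with DESeq2 from these counts, and a file of gene positions. Of 20612 deposited genes, 20455 had the same start and end as in the GENCODE annotation.

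Expected counts were rounded to whole numbers. Low genes were filtered by filterByExpr (min.count 10; 10 groups, each generation split by sex), which removed 1789 genes and left 18823. Early (generations 17 and 18) and late (19, 21 and 23) libraries were compared with edgeR 4.0.16 (R 4.3.3), using TMM factors of 0.871 to 1.29, a quasi-likelihood F-test with sex as covariate and Benjamini-Hochberg adjustment at 0.05. Log2 differences are late minus early and their standard error is the size of the difference over the square root of F. limma 3.58.1 and DESeq2 1.42.0 gave alternatives, and total counts were compared by permutation (scipy 1.17.1, 100000 resamples). The scripts were tested on simulated data.

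Genes named were Fos, Fosb, Egr1 and Cwc22, the 10 largest rises and the 10 largest falls among called genes with separated generation means, a mean of at least 1 CPM in either period and no predicted-gene name, and of each list the called members with the smallest p, up to 4 or, for immediate-early lists, up to 8 (in a list with no call, the member with the smallest p). Other genes were named after their values were seen. The members and lists were chosen with earlier results of these data known. Some genes are not reported here.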

Additional observations from a re-analysis of the deposited data

Results flagged for a closer look

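In 9 of the genes named, the step from early to late generations differed between the sexes (edgeR, sex-by-period interaction, log2 difference of males minus that of females). Alb, by far the highest in 1 early female, gave 3.26 (adjusted p = 8.69e-09), with -5.07 in females alone and -1.80 in males alone. The red-cell genes gave -2.80 for Slc4a1 (adjusted p = 1.84e-07) and -0.79 for Alas2 (adjusted p = 0.00434), and the neutrophil genes -2.09 for S100a9 (adjusted p = 0.000476) and -1.91 for S100a8 (adjusted p = 0.00238). In females alone Slc4a1 differed by 2.77 and S100a9 by 2.34, and in males alone by -0.021 and 0.26.

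The interferon-induced GTPase genes gave -2.06 for Iigp1 (adjusted p = 0.000272), -1.54 for Igtp (adjusted p = 1.32e-06) and -1.21 for Irgm2 (adjusted p = 0.000117), each highest in 1 generation 21 female. Cyp1a1 gave -1.30 (adjusted p = 0.000789), with 1.34 in females alone and 0.032 in males alone. With limma on the deposited variance stabilised scores no gene passed the test of this interaction, against 46 with edgeR.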

How the results depend on the processing

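DESeq2 size factors, no filter on low counts, the DESeq2 Wald test, limma on the deposited scores, a library-block term, marker scores or equal weight for each generation left the number of called genes within 1.5 times 1257. As a share of the genes tested, 6.68% in the comparison reported, it was 2.62% in females and 2.49% in males, 0.383%, 0.218%, 0.414%, 0.234% and 0.218% within library blocks 1 to 5, 3.59% with generation as a random block and 0.032% (6 genes) with generation as the unit. Leaving out 1 generation gave 0.972% (without 17) to 9.38% (without 18), and 4.38% without 23. Of the 91 genes named by rule, 28 lost their call in females alone and 36 in males alone while keeping their direction. A sex-by-period interaction was called in 0.121% under the stricter filter and in 0 genes with limma on scores, and a difference within a period in 0.765% with limma on scores. The cause of these changes was not tested, and some of these fits held fewer libraries. The difference in total counts was -0.469 M counts between medians. Directions turned in few settings. In males alone the log2 difference was -0.021 for Slc4a1, -0.094 for Irgm2, -0.29 for Igtp and 0.13 for Cd4. In block 2 it was -0.15 for S100a8, -0.011 for Adgre1, 0.11 for Chrna9, -0.032 for Dpt, -0.011 for Itgam, 0.025 for Atp5a1, 0.012 for Myh7b and -0.068 for Dio2. In block 3 it was 0.0099 for Chrnb1, -0.017 for Hist1h1d and 0.70 for Cd4, and in block 4 it was 0.058 for Alb and 0.16 for Cd4. In block 5 it was 0.16 for Alb, -0.066 for Cyp1a1, -0.11 for Irgm2, -0.17 for Igtp, 0.012 for Rps7 and -0.024 for Pmp22. Leaving out 1 generation gave -0.16 (without 21) to 0.67 for Igtp and -0.041 (without 17) to 0.24 for Dio2. Settings chosen after seeing the data left out DO022 or the 5 libraries that stood apart, and each gave 1243 called genes. No paired analysis was possible because replicate numbers are animal numbers that no groups share. With generation as the unit, 2 early cohorts stood against 3 late ones.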
